A study of Mus musculus with 8 samples.

Results

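Epithelial cells are held together by adherens junctions, tight junctions and related adhesion complexes, and 8 genes of these complexes were followed here through the chromatin loops that reach their promoters. The genes were Cdh1, Epcam, Cldn3, Cldn4, Cldn7, Ocln, Tjp1 and F11r. They were chosen by name and not by a measured value, though with earlier results of these data known. A loop belonged to a gene when either of its anchors lay within 2 kb of an annotated transcription start of that gene. For 6 of the 8 genes such an anchor existed. These genes had 9 of the 30542 anchors and 218 of the 249200 distinct loops. Of all 21924 protein-coding genes, 49.2% had an anchor by the same rule.

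The loops came from Hi-ChIP, which joins chromosome conformation capture to chromatin immunoprecipitation, so that pairs of distant fragments are read where a chosen protein was pulled down. FOXA1 (antibody ab5089) and HNF4G (antibody HPA005438) were each pulled down in cultured pancreatic cancer cells from the KPC mouse, a genetically engineered model of the disease. The cells were either a line from a primary tumor or a line from a liver metastasis (liver mets). The 4 groups had 2 replicates each, and both replicates of a group stood behind a single loop list. All cells carried the genotype label WT, were untreated, and were grown in DMEM with 10% FBS. Each tissue context was thus represented by 1 cell line, so that the tumor-to-metastasis contrast and a difference between these lines cannot be told apart. In liver mets 125623 FOXA1 and 78098 HNF4G loops were listed, and in tumor 104136 and 76323. Where 4 values follow each other, they belong to the FOXA1 lists and then to the HNF4G lists, with liver mets before tumor in each. The sequencing depth was unknown, and there was no spread between replicates to test a difference between groups against. The 95% intervals given with counts, ratios and shares cover counting error only and treat loops as independent, although many share an anchor. The lists held no expression level, so nothing here measures how much RNA or protein the genes gave.

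Adherens junctions are built on cadherins, which bind the same cadherin on the neighboring cell and are tied to actin through catenins. Tight junctions seal the space between cells. Their strands are made of claudins and occludin, and scaffold proteins of the ZO family link them to the cytoskeleton. Loss of E-cadherin and of other junction proteins is a hallmark of the epithelial-to-mesenchymal transition, in which repressors such as SNAI1 and ZEB1 bind E-box words in the DNA of these genes. FOXA1 is a forkhead factor that binds closed chromatin, and HNF4G is a nuclear receptor of the HNF4 family. Both are found in endodermal epithelia.

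Sequences that the factors could read were looked for first in the regions that the loops joined. Exact matches on both strands were counted for the forkhead words TGTTTAC and TATTTAC, the HNF4 words CAAAGTCCA and CAAAGGTCA and the E-box word CACCTG. None of these words contains another, and the E-box word was added after results had been seen. The stretches that follow lie in partner anchors listed in all 4 groups, that is, at the far end of loops found for both factors in both lines. Capitals mark the forkhead or HNF4 words, and the plus strand of GRCm38, the assembly that mm10 names, is given 5′ to 3′.
Cdh1, partner at -14.4 kb, inside the non-coding gene 1110028F18Rik, chr8:106588993-106589076: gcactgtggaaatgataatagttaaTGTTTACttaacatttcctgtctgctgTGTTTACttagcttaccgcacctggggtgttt
Cdh1, partner at -25.8 kb, between genes, chr8:106577481-106577539: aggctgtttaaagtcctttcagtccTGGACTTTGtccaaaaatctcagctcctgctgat
Cdh1, wide anchor in the first part of the gene, intron, chr8:106612106-106612162: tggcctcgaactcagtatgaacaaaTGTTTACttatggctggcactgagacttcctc
Cdh1, partner at +33.7 kb, intron, chr8:106638179-106638235: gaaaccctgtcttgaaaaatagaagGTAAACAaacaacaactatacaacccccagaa
Epcam, partner at -320.2 kb, intron of Ttc7, chr17:87313522-87313578: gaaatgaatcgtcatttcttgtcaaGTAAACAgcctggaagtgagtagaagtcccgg
Epcam, same partner, intron of Ttc7, chr17:87317405-87317463: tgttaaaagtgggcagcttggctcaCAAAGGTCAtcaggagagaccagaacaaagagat
F11r, partner at -26.0 kb, upstream of Usf1, chr1:171410936-171410994: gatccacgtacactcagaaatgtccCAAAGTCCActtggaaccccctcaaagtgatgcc
F11r, partner at -12.5 kb, inside the gene model Gm26641, chr1:171426263-171426337: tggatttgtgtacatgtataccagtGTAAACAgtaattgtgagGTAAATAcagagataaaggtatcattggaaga
Tjp1, partner in an intron, chr7:65359978-65360034: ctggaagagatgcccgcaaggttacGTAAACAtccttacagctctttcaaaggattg

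Among the 18 distinct partner anchors listed in all 4 groups, 11 held a forkhead word and 4 held an HNF4 word. Anchors within 20% of their widths held them in 60.5% and 10.5% of cases on average, so the forkhead count was close to that level and the HNF4 count rested on 4 anchors. In the partner at -14.4 kb from Cdh1, the pair of TGTTTAC words stood 20 bases apart on the same strand. The partner at -12.5 kb from F11r held a pair 11 bases apart. Over all 179 partner anchors of the junction genes, forkhead words occurred 3.59 times and HNF4 words 0.462 times per 10 kb. Over all anchors of the 4 lists the densities were 3.42 and 0.351 per 10 kb. At the 9 anchors on the genes themselves they were lower for both, at 1.47 and 0.294 per 10 kb, over 34 kb of sequence. The E-box word went the other way in total, with 14.7 matches per 10 kb at the gene anchors, 8.05 at their partners and 8.81 over all anchors. All 9 gene anchors held it, against 83.2% of all anchors and 69.1% to 100% of anchors of similar width. The genes differed in this. The anchors of Cdh1, Epcam, Cldn3 and Ocln held more matches than the median at similar width. The anchors of Tjp1 held 2 and 1 and those of F11r 1 and 4, where these medians were 2, 1, 1 and 6.

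The RefSeq promoter table for GRCm38.p6, with 250 bases before and 50 after each start, matched 7 of the 8 genes, all but Cdh1, with 9 entries. None of the 9 held a forkhead or an HNF4 word, which were present in 6.54% and 0.95% of all 32851 entries. The E-box word was present in 7 of the 9 entries and in 6 of the 7 genes, all but Tjp1, against 20.2% of all entries. That background counts entries and not genes. Cldn7 and Ocln had 2 entries each, and those of Ocln overlapped and shared a match. The Epcam entry is shown because this gene had a single anchor that covered all its starts and 2 E-box matches upstream of the start. Its 250 bases before the start, on the plus strand with the E-box words in capitals, were as follows.
Epcam, chr17:87635729-87635978: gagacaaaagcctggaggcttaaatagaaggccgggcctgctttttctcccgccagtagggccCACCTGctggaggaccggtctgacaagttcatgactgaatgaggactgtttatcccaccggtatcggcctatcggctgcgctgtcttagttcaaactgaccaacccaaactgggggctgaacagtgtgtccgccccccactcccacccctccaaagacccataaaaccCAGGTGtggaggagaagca
A match says only that these letters are in the window. Binding at these words was not tested.

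With FOXA1, the junction genes had 119 loops in liver mets and 92 in tumor. With HNF4G they had 69 and 99. More FOXA1 loops were therefore listed in liver mets than in tumor, and fewer HNF4G loops. The FOXA1 ratio of liver mets to tumor was 1.29 (0.977 to 1.72), against 1.19 over all loops with an anchor at an annotated start, and its interval included 1. The HNF4G ratio was 0.697 (0.505 to 0.957), against 0.987 over all such loops. When each count was divided by the length of its list, the ratios were 1.07 (0.81 to 1.42) for FOXA1 and 0.681 (0.493 to 0.936) for HNF4G. Scaling by list length thus brought the FOXA1 ratio closer to 1 and left the HNF4G ratio nearly as it was. Without F11r the FOXA1 ratio was 1.37 (1.01 to 1.86). The HNF4G interval reached past 1 when Cdh1, Cldn3 or F11r was left out, with ratios of 0.719 (0.469 to 1.09), 0.732 (0.516 to 1.03) and 0.724 (0.515 to 1.01). It did so too when a start had to lie inside the anchor (0.704, 0.48 to 1.03) or the value had to be at least 2 (0.556, 0.146 to 1.85). Whether the difference exceeded the spread between cultures could not be tested.

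**Figure D1:**
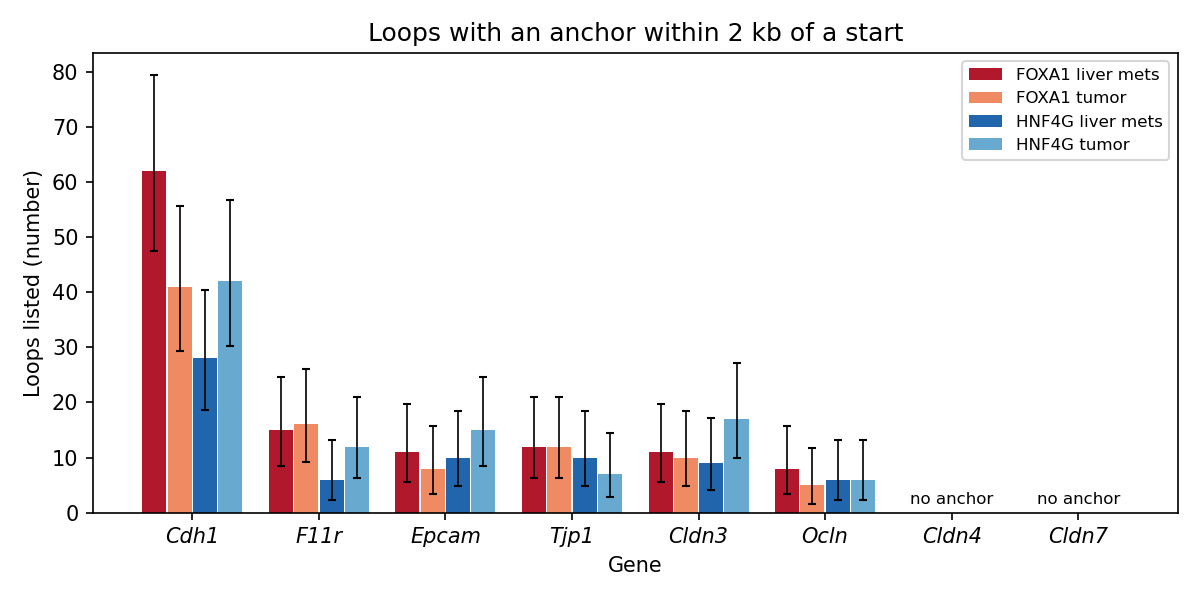
Number of loops with an anchor within 2 kb of a start of each junction gene, in each of the 4 lists, with exact 95% Poisson intervals that cover counting error only. Cdh1 had the most loops in every list, from 28 in HNF4G liver mets to 62 in FOXA1 liver mets, and Cldn4 and Cldn7 had no anchor.

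Cdh1 encodes E-cadherin, the cadherin of epithelial adherens junctions, and supplied the largest share of the loops. With FOXA1 it had 62 loops in liver mets (47.5 to 79.5) and 41 in tumor (29.4 to 55.6). With HNF4G it had 28 (18.6 to 40.5) and 42 (30.3 to 56.8). Liver mets over tumor gave 1.51 (1.00 to 2.30) for FOXA1 and 0.667 (0.398 to 1.10) for HNF4G. The FOXA1 count was higher in liver mets and the HNF4G count higher in tumor. The tumor counts were nearly equal, though the tumor lists held 104136 FOXA1 and 76323 HNF4G loops. Divided by the length of the lists, the Cdh1 ratios were 1.25 (0.831 to 1.91) for FOXA1 and 0.652 (0.389 to 1.08) for HNF4G. Both scaled intervals included 1. In these lists Cdh1 ranked above 99.0%, 98.0%, 96.6% and 98.8% of the 10786 protein-coding genes with an anchor. Without Cdh1 the other 5 genes had 57, 51, 41 and 57 loops in the same order of lists.

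Both anchors of Cdh1 had many loops, and 1 of them was wide. Cdh1 lies on the plus strand at chr8:106603351-106670246 and had 2 anchors. The first, chr8:106602357-106604558, covered its starts and had 22, 13, 10 and 15 loops in the 4 lists. At 2202 bp it was not wide, and its counts were above those of 92.9%, 82.5%, 80.7% and 91.0% of promoter anchors. Promoter anchors of 2 to 3 kb had medians of 6, 5, 4 and 4 loops. The second, chr8:106605174-106615599, began 615 bp further on, inside the gene, and lay 1031 bp from the nearest start. It had 41, 29, 19 and 28 loops. At 10426 bp it was wider than 99.6% of promoter anchors, and the 167 promoter anchors over 8 kb had medians of 29, 22, 18 and 19 loops. Its counts were above these medians in all 4 lists, by 1 loop in HNF4G liver mets, and the medians over all promoter anchors were 7, 6, 4 and 4. The part of the width in the counts was not tested.

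Of the 84 distinct Cdh1 loops, 15 were listed in all 4 groups and 36 in only 1. The 15 common loops had partners between -41.6 kb and +67.3 kb from the first start, where negative distances are upstream. Of these, 8 had a partner inside Cdh1 itself, 1 joined both Cdh1 anchors, 5 had a partner with no protein-coding gene and 1 had a partner at the start of Gm10073. A core of short loops around and within the gene was therefore listed for both factors and both lines, in part at low values. No more distant Cdh1 partner was in all 4 lists.

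Each loop carries a value, read as the -log10 of an adjusted p for the contact. The value ranks loops within a list, and the same value need not mean the same evidence in another list. Each list had a lower tied value, of 0.0889, 0.123, 0.146 and 0.171 in the order of lists. As the value was read, listing at this level was weak evidence of a contact. The common Cdh1 loop to the partner at +67.3 kb stood at this level in all 4 lists. Of the 15 common Cdh1 loops, 7, 5, 4 and 2 had a value of 2 or more in the order of lists. The most extreme Cdh1 loop joined the wide anchor to the partner at -14.4 kb, at the start of 1110028F18Rik, where the pair of TGTTTAC words shown above was found. Its value was 20 in FOXA1 liver mets. The highest value was 20 in each of the 4 lists, so loops elsewhere reached it too. The Cdh1 loop had 1.23 in FOXA1 tumor, and 1.34 and 1.51 in the HNF4G lists. The loop was thus listed in every group, and its value was above 2 only in FOXA1 liver mets. The same partner was joined to the first Cdh1 anchor at 0.179, 0.689, 0.14 and 0.17, so the high value belonged to the wide anchor.

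Among the other common Cdh1 loops, the list with the highest value varied. The loop between both Cdh1 anchors had values of 12.8, 1.86, 6.17 and 3.26 in the same order of lists, higher in liver mets for both factors. The loop from the wide anchor to the intron at +16.1 kb had 4.27, 2.58, 7.25 and 0.403 and was highest in HNF4G liver mets. The loop to the intron at +33.7 kb had 7.56, 2.4, 2.58 and 2.18, above 2 in every list. The loop to Gm10073 at -31.5 kb had 5.23 and 5.42 in the FOXA1 lists and 0.835 and 0.986 in the HNF4G lists, so that both FOXA1 values were above both HNF4G values. The intron partner at +38.0 kb was similar, with 3.47 and 3.72 for FOXA1 against 0.146 and 0.922 for HNF4G. Over the 15 common loops the median value was 1.91, 1.86, 0.796 and 0.922, and FOXA1 liver mets and FOXA1 tumor each had the highest value in 5 of them.

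**Figure D2:**
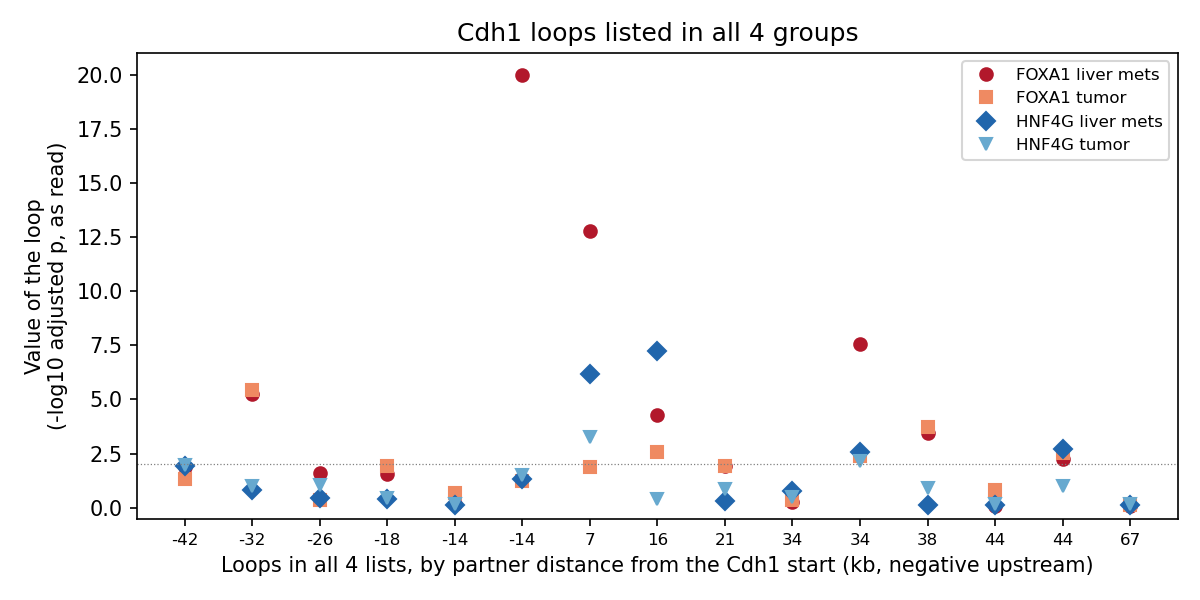
Values of the 15 Cdh1 loops listed in all 4 groups, ordered by the distance of the partner from the first Cdh1 start in kb (negative upstream), with 1 symbol per list and a dotted line at a value of 2. The loop with a partner at -14 kb stands at 20 in FOXA1 liver mets and between 1.23 and 1.51 in the other lists.

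Cdh1 loops listed with 1 factor or in 1 line were mostly long. Both FOXA1 lists and neither HNF4G list had 7 Cdh1 loops, and no Cdh1 loop was in both HNF4G lists alone. The 7 included partners at a start of Smpd3, which encodes a sphingomyelinase, at -264.8 kb (values of 3.08 and 1.75), and at +595.1 kb with no protein-coding gene (3.69 and 1.9). They also included an intron of Cdh3, the neighboring gene for P-cadherin, at -84.5 kb and low values of 0.091 and 0.123. Some partners of the 7 were joined to the other Cdh1 anchor in HNF4G lists. These were at -203.5 kb (1.8 in HNF4G liver mets) and at -273.0 kb (1.87 in HNF4G tumor). The partner at +20.5 kb was joined to that anchor in all 4 lists, with 0.314 and 0.86 for HNF4G. Another start of Smpd3, at -325.7 kb, was joined to the wide anchor in FOXA1 tumor at 3.35 and in HNF4G liver mets at 1.92. Both liver mets lists alone had 3 Cdh1 loops, with partners at -203.5, -167.6 and -41.6 kb, none of them in a protein-coding gene. These were particular pairs of anchors, and each of the 3 partners was also joined to Cdh1 in tumor through the other Cdh1 anchor. That loop had 2.91 in FOXA1 tumor at -203.5 kb, 1.64 in HNF4G tumor at -167.6 kb, and 1.87, 1.35, 1.91 and 1.99 in the 4 lists at -41.6 kb. Both tumor lists alone had 2, with partners in an intron of Smpd3 at -295.5 kb and beyond the gene at +514.0 kb. The highest value in HNF4G tumor, 5.33, was at a partner at -224.7 kb that FOXA1 tumor and HNF4G liver mets also listed, at 1.66 and 1.83, and FOXA1 liver mets did not list. Another partner was the start of Esrp2, an epithelial regulator of splicing, which was joined to the wide anchor by a loop of 472.5 kb in FOXA1 liver mets and HNF4G tumor at values of 1.81 and 1.97. The longest loop, of 1439 kb, reached the start of Cbfb and was listed in FOXA1 liver mets alone.

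Epcam encodes an adhesion molecule that marks simple epithelia. It lies at chr17:87635979-87651129, and its starts were covered by 1 anchor, chr17:87635725-87637854. With FOXA1 it had 11 loops in liver mets and 8 in tumor, and with HNF4G 10 and 15. The ratio between the lines was 1.38 (0.504 to 3.94) for FOXA1 and 0.667 (0.268 to 1.59) for HNF4G, and both intervals included 1. Most partners lay upstream, 21 of 29, and no partner lay inside the gene. Only 2 of the 29 loops were in all 4 lists.

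The first of these was a long contact, of 321.0 kb, to an intron of Ttc7 with values of 1.71, 3.32, 1.92 and 5.74 in the 4 lists. It was higher in tumor than in liver mets for both factors, and its partner held both the forkhead and the HNF4 word shown above. The second joined a region between genes at -17.2 kb, with 0.437, 1.91, 1.43 and 2.21, again higher in tumor for both factors. The start of Socs5, a suppressor of cytokine signaling, was joined over 531.3 kb in both tumor lists and neither liver mets list, at 1.9 for FOXA1 and 3.77 for HNF4G. An intron of Socs5, at -510.4 kb, was joined in FOXA1 liver mets at 1.82 and in HNF4G tumor at 1.97. An anchor just outside the rule, 2346 bp from the nearest Epcam start, had 9, 13, 7 and 7 loops and was not counted.

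Cldn3, Cldn4 and Cldn7 encode claudins, which form the strands of tight junctions. Cldn3 (chr5:134986214-134987472) had 1 anchor, chr5:134984733-134987679, which carried 11 liver mets and 10 tumor loops for FOXA1, and 9 and 17 for HNF4G. HNF4G tumor stood above the other lists, and the HNF4G ratio of liver mets to tumor was 0.529 (0.208 to 1.26), against 1.10 (0.424 to 2.89) for FOXA1. None of its 26 loops was in all 4 lists. Of the HNF4G loops, 6 were in both lines, which is 66.7% of the smaller list, and of the FOXA1 loops 4 were, or 40.0%.

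The Cldn3 partners included 13 promoters of other genes. The start of Stx1a, which encodes a syntaxin, was joined over 36.8 kb in both HNF4G lists alone at 0.468 and 0.43. The start of Baz1b, a chromatin remodeler gene, was joined over 201.3 kb in the same lists alone, at 1.79 and 1.73. The start of Mlxipl, which encodes a transcription factor of glucose and lipid metabolism, was joined over 121.6 kb in both FOXA1 lists alone at 0.87 and 1.18. Gtf2i, which encodes a general transcription factor, was joined over 672.1 kb in both tumor lists alone at 1.9 and 1.99. The most widely listed promoter partners were in 3 lists. The start of Eif4h, which encodes a translation initiation factor, was missing in HNF4G liver mets and had 1.73, 1.8 and 1.89 in the others. The start of Abhd11 was missing in FOXA1 liver mets and had 0.115, 0.433 and 0.441. The shared start region of Bud23 and Dnajc30 was missing in HNF4G liver mets and had 0.0889, 0.123 and 0.171, the lower tied value of each list. The highest value of any Cldn3 loop was 2.83, in FOXA1 tumor, at a partner 197.5 kb away with no protein-coding gene. That partner, chr5:135182778-135184687, lay beside the Baz1b partner, chr5:135186037-135189034. A FOXA1 list thus had a contact next to Baz1b, and only the particular pair of anchors was limited to the HNF4G lists.

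Cldn4 and Cldn7 had no anchor within 2 kb of a start. The nearest to Cldn4, which lies next to Cldn3 on the minus strand, was chr5:134949737-134952724, upstream of it at 2803 bp. That anchor had 7, 11, 4 and 6 loops in the 4 lists. It was joined to the Cldn3 anchor in FOXA1 tumor at 0.123 and in HNF4G liver mets at 0.146, both the lower tied values of their lists. The anchor nearest to Cldn7 lay 13287 bp away at the starts of Ctdnep1 and Elp5 and had 24, 9, 10 and 7 loops. An anchor 2252 bp from Cldn3 had 11, 10, 10 and 9.

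Ocln encodes occludin, a membrane protein of tight junctions. Its anchor, chr13:100550454-100553963, had 8 FOXA1 loops in liver mets, 5 in tumor, and 6 in each HNF4G list. The ratios of liver mets to tumor were 1.60 (0.462 to 6.22) and 1.00 (0.267 to 3.74). The equal HNF4G numbers hid different loops, since 0 of 6 were in both lines (Wilson interval of the share up to 39.0%). None of the 19 loops was in all 4 lists, and 15 were in only 1.

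The most widely listed Ocln loops ended in its own introns and exons. A partner 35.3 kb away inside the gene was listed everywhere but in HNF4G tumor, at 0.0889, 0.123 and 0.146. Each of these was the lower tied value of its list. Another at 16.2 kb had the same list membership, with 0.0831 in FOXA1 liver mets, 1.23 in FOXA1 tumor and 0.361 in HNF4G liver mets. HNF4G tumor alone listed a loop of 64.4 kb to the start of Marveld2, the gene of the related tight junction protein tricellulin, at its lower tied value of 0.171. A partner at a start of Gtf2h2, which encodes a subunit of the TFIIH complex, was joined over 59.7 kb in both tumor lists alone at 1.51 and 0.171. The longest loop among all junction genes, of 1859 kb, ran from Ocln to the start of Tmem171 in FOXA1 liver mets.

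Tjp1 encodes ZO-1, a scaffold that links tight junction proteins to actin. It lies on the minus strand at chr7:65296165-65527781 and had 2 anchors, at its outer starts (chr7:65526921-65528300) and at inner starts (chr7:65369795-65372649). The inner anchor had 9, 9, 7 and 5 loops and the outer 3, 3, 3 and 2 in the 4 lists. Together the gene had 12, 12, 10 and 7. Tjp1 was the only gene of the 6 with more HNF4G loops in liver mets, at a ratio of 1.43 (0.491 to 4.42), and its FOXA1 ratio was 1.00 (0.411 to 2.43). The 2 anchors of the gene were not joined to each other in any list.

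Of the 27 Tjp1 loops, 13 ended inside the gene, the largest number beside the 14 of Cdh1. Tjp1 and Cdh1 are also the longest of the junction genes, and these numbers were not scaled by gene length. The loop in all 4 lists joined the inner anchor to an intron 11.1 kb away, with values of 0.08, 1.08, 1.26 and 0.16. It was higher in FOXA1 tumor and HNF4G liver mets, so no line or factor stood out. The inner anchor was also joined over 148.6 kb to an intron close to the outer starts, in all lists but FOXA1 tumor, at 1.21, 1.66 and 1.57. An intron partner 89.3 kb from the inner anchor was in both FOXA1 lists alone at 0.0889 and 0.993.

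F11r encodes JAM-A, an adhesion molecule of the immunoglobulin family at tight junctions. Its anchors, chr1:171434722-171436403 and chr1:171436938-171443784, also lay within 2 kb of starts of Gm26641, so their loops cannot be assigned to 1 of these genes. The second anchor was wider than 97.2% of promoter anchors. The start of F11r at 171462850 had no anchor. With FOXA1, F11r had 15 loops in liver mets and 16 in tumor, and with HNF4G 6 and 12. HNF4G liver mets was the low list, with a HNF4G ratio of 0.50 (0.154 to 1.44) and a FOXA1 ratio of 0.938 (0.432 to 2.02). Of its 33 loops, 25 were in only 1 list and 3 in all 4.

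The 3 common F11r partners were all upstream. The loop of 96.1 kb to the starts of Nit1 and Pfdn2, the latter a prefoldin subunit, had 0.283, 0.443, 6.67 and 0.914 in the 4 lists. The list with the fewest F11r loops thus gave this one the highest value. The loop to the start of Usf1, which encodes a transcription factor, had 0.21, 0.122, 0.391 and 1.47 over 28.8 kb. The loop of 15.3 kb to the partner at -12.5 kb, with the pair of forkhead words shown above, had 0.16, 0.564, 0.139 and 1.39. Both tumor lists alone joined F11r over 65.0 kb to an intron of Nectin4, an adherens junction gene, at 0.392 and 0.507.

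**Figure D3:**
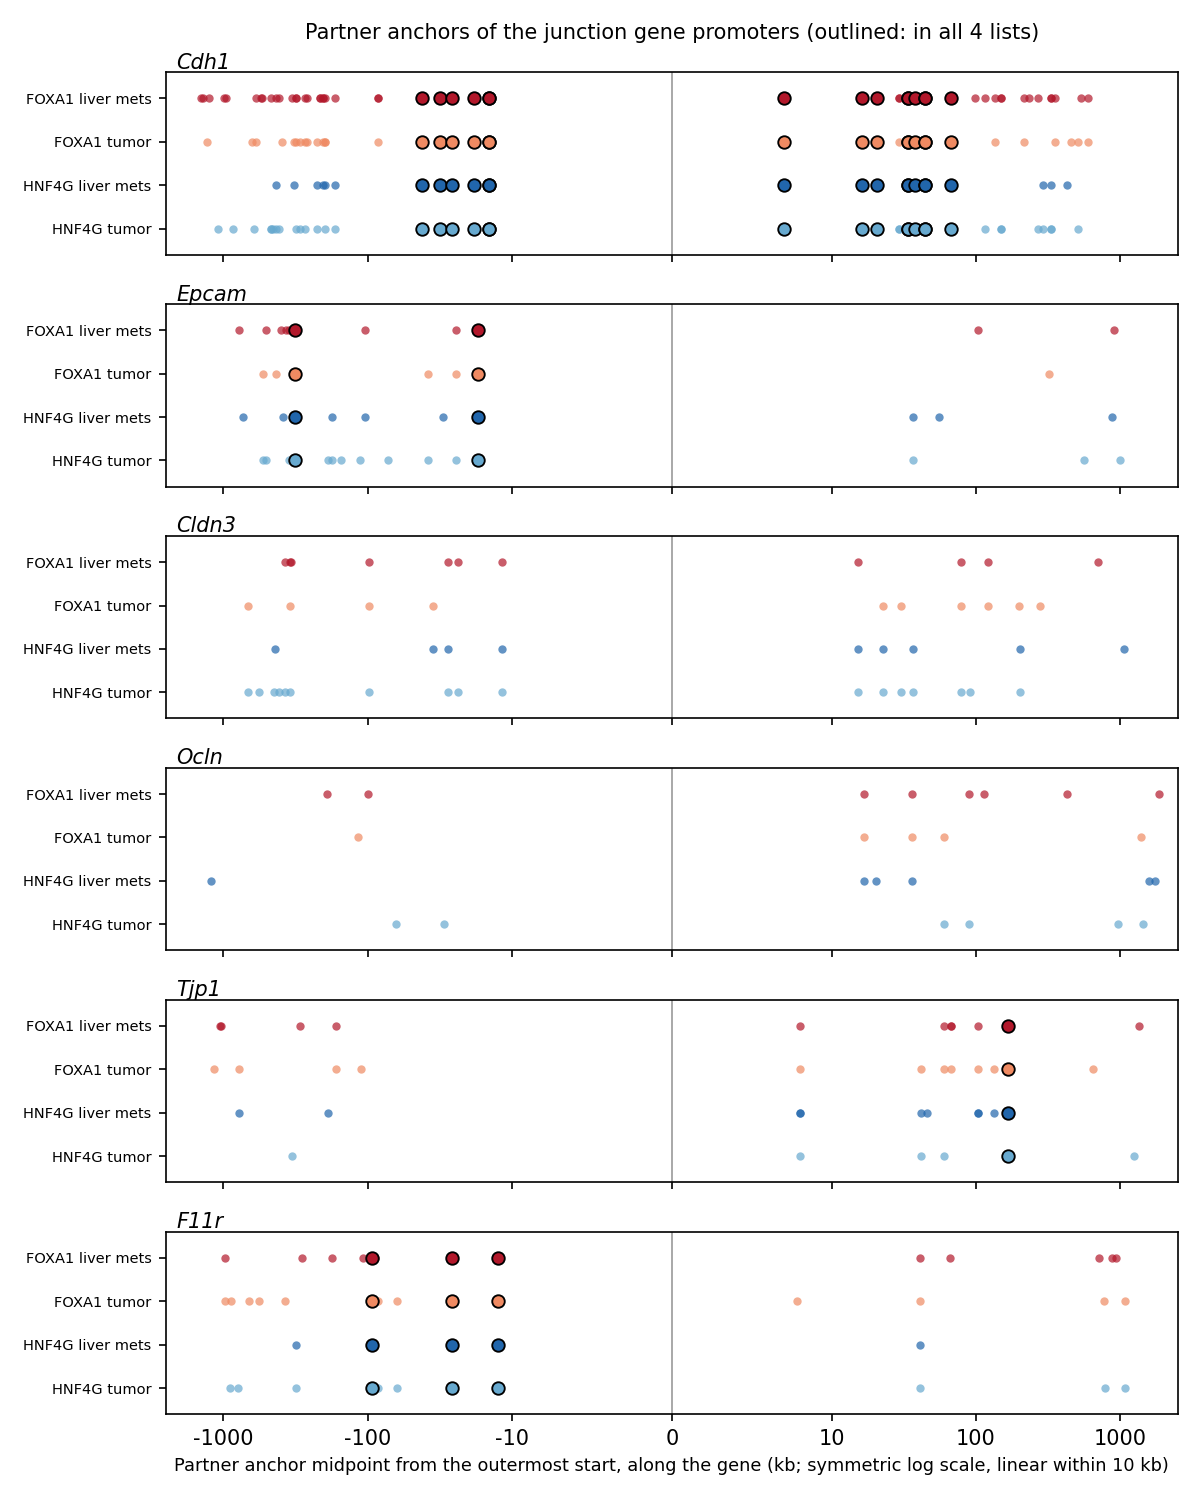
Partner anchors of the 6 junction genes with an anchor, by distance of the partner midpoint from the outermost start along the gene (kb, symmetric log scale, negative upstream), with 1 line of points per list and loops found in all 4 lists outlined. Cdh1 has 15 outlined loops within -41.6 and +67.3 kb, Epcam has 2, Tjp1 1, F11r 3, and Cldn3 and Ocln none.

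Each gene was then set against all genes. A gene entered when both lists of a factor held at least 10 of its loops together, and a gene was called higher or lower when the ratio of its shares of the lists, with 1 added to each count, was at least 1.5-fold from equal. For FOXA1, 0 of the 6 junction genes were called higher and 0 lower in liver mets, where 9.34% and 14.4% of 6862 genes were. For HNF4G, 0 were called higher, against 11.0% of 5425 genes. Lower in liver mets were 3 of the 6, Cdh1 at 0.659, Cldn3 at 0.543 and F11r at 0.526, against 16.3% of genes, and Epcam at 0.672 fell just short. The median ratio of the 6 genes was 1.00 for FOXA1 and 0.665 for HNF4G, and over all genes it was 0.947 and 0.977. Cdh1, Epcam and Cldn3 had more FOXA1 loops and fewer HNF4G loops in liver mets than in tumor, as did 30.9% of the 5202 genes with enough loops for both factors. For Cldn3 this rested on 11 FOXA1 loops against 10, and its FOXA1 ratio of shares was 0.904, in the other direction. No test of the factors against each other was run at these genes.

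**Figure D4:**
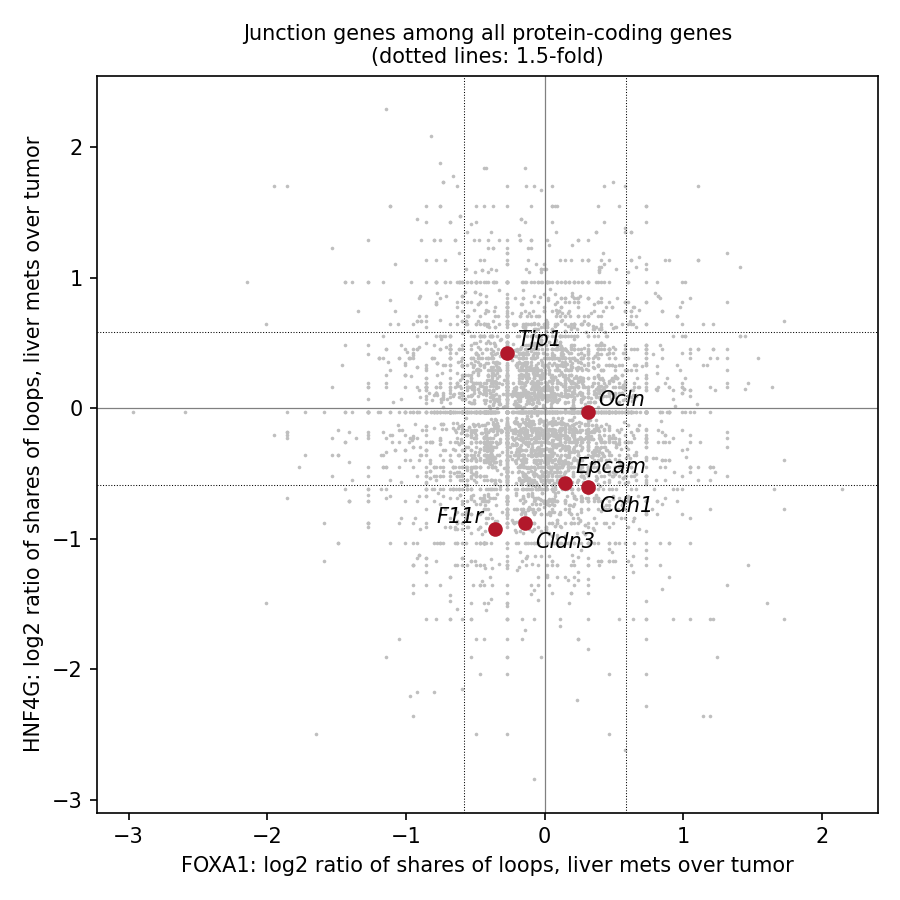
Log2 ratio of shares of loops, liver mets over tumor, for FOXA1 (horizontal) and HNF4G (vertical), with 1 gray point per protein-coding gene that had at least 10 loops for each factor, the 6 junction genes in red and dotted lines at 1.5-fold. Cdh1, Cldn3 and F11r lie below the lower HNF4G line, and all 6 lie between the FOXA1 lines.

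Sharing between the lines was counted as a share of the smaller list. For FOXA1, 46 of the 92 loops of the smaller list were in both lines (Wilson interval 40.0% to 60.0%), against 40.6% for all loops with an anchor at a start. For HNF4G, 35 were in both, 50.7% of the smaller list (39.2 to 62.2), against 34.1%. The FOXA1 interval included the share over all promoters, and the HNF4G interval lay above it. Cdh1 had the higher shares, with 70.7% (55.5 to 82.4) for FOXA1 and 67.9% (49.3 to 82.1) for HNF4G. Without Cdh1 the shares were 33.3% (17 loops) and 39.0% (16 loops), the first under and the second over the share of all promoters. Between the factors, 56.5% of the smaller list was shared in liver mets (44.8 to 67.6) and 46.7% in tumor (36.9 to 56.9), against 44.1% and 38.4% over all promoters, the first just below its interval and the second within it. Without Cdh1 these shares were 39.0% in liver mets (16 loops) and 39.2% in tumor (20 loops). The liver mets share was then under that of all promoters and the tumor share just over it. Of the 218 loops, 57.3% were in 1 list and 9.63% in all 4, and for all promoters the shares were 65.7% and 5.54%. For the 134 loops of the 5 other genes, 89 (66.4%) were in 1 list and 6 (4.48%) in all 4, so that without Cdh1 the share in all 4 lists was under that of all promoters.

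The median span of these loops was shorter in each list than that of all promoter loops. A loop was called long when it spanned at least 100 kb between anchor midpoints. With FOXA1 the long share was 55.5% in liver mets (46.5 to 64.1) and 47.8% in tumor (37.9 to 57.9). With HNF4G it was 40.6% (29.8 to 52.4) and 50.5% (40.8 to 60.1). The corresponding shares over all promoter loops were 63.8%, 60.3%, 55.3% and 58.7%, and the interval included that share in FOXA1 liver mets and HNF4G tumor and did not in FOXA1 tumor, nor in HNF4G liver mets. The median spans were 128, 96.5, 41.7 and 108 kb, against 174, 150, 123 and 142 kb. The surplus was in spans of 20 to 50 kb, which held 19.3%, 25%, 33.3% and 26.3% of the junction gene loops and 12.6%, 13.9%, 15.7% and 14.4% of all promoter loops. Cdh1 supplied most of the loops of 20 to 50 kb in each list. Without Cdh1 that share lay under the share of all promoter loops in FOXA1 liver mets and above it in the other lists. Intervals for shares without Cdh1 were not calculated. For Epcam the median spans were 354, 319, 141 and 177 kb, longer than those of all promoter loops. HNF4G liver mets was the list with the shortest loops at these genes. By gene the medians in that list ran from 33.5 kb for F11r to 626 kb for Ocln, so the genes did not share 1 span.

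Most partners lay at or inside a protein-coding gene. Of the 218 loops, 80 (36.7%) ended at a promoter of another protein-coding gene, 41 (18.8%) inside another gene, 31 (14.2%) inside the junction gene itself and 65 (29.8%) where no protein-coding gene was annotated. The genes differed in this, since 19 of 33 F11r partners and 13 of 26 Cldn3 partners were promoters of other genes, and 18 of 29 Epcam partners had no protein-coding gene. Partners in other junction genes were few, namely the Cdh3 intron for Cdh1, the Nectin4 intron for F11r and the Marveld2 start for Ocln.

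Most values were low. Loops with a value of 2 or more numbered 14, 9, 5 and 9 in the 4 lists, and 12, 7, 4 and 5 of these belonged to Cdh1. The value followed the span. Of the junction gene loops of 500 kb or more, 19 of 22, 16 of 16, 7 of 7 and 16 of 17 had a value within 0.1 of the upper tied value of their list (1.87, 1.91, 1.99 and 1.99). A value close to 1.9 at a long span therefore did not set 1 long loop apart from another.

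A wider set of 41 genes of adherens junctions, tight junctions, desmosomes and cell polarity was counted the same way. Of these, 31 had an anchor, and their median numbers of loops were 8, 10, 6 and 5 in the 4 lists, against 7, 6, 5 and 5 for all genes with an anchor. For FOXA1, 0 of 21 were called higher in liver mets and 3 lower, namely the claudin gene Cldn2 at 0.51, the desmosomal plakophilin gene Pkp2 at 0.608 and Perp, a desmosome gene, at 0.603. The background was 9.34% higher and 14.4% lower. For HNF4G, 2 of 18 were called higher, the claudin gene Cldn18 at 2.61 and the alpha-catenin gene Ctnna1 at 2.44, and 0 lower, against 11.0% and 16.3% of all genes. Apart from the counts of 0, these were close to the background. The median ratio of these genes was 0.845 for FOXA1 and 1.06 for HNF4G. Cdh3 and Nectin4, both reached by loops from the junction genes, had no anchor at their own starts.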

How the data were processed

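Groups were taken from the sample titles, with 2 replicates in each of 4 groups and 1 deposited loop list per group. How the replicates were joined, where the anchors came from and how many read pairs a loop needed were not given in the sources used here. The study's methods name HiC-Pro (version 3.1.0 per the labels), with duplicates removed, DpnII fragments and mm10 (GRCm38), followed by hichipper. Depth was unknown, and depth corrections were not possible. The value per loop deposited by the authors had no name and was read as the −log10 of an adjusted p, from the values alone. The authors also deposited a display score, which rounded the value down, added 1 and multiplied by 10, and which was not used further.

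Anchors were matched to transcript starts of GENCODE M21 within 2 kb. Coordinates count from 1. Loops were shared when both anchors were identical. The span is the distance between anchor midpoints. Ratios of loop numbers had exact 95% intervals given their sum, numbers had exact Poisson intervals and shares had Wilson intervals. A test between groups needs replicate values and was not possible. Calls used a 1.5-fold ratio of shares, at least 10 loops in both lists together and 1 added to each count. Motif words were exact matches on both strands, in RefSeq promoters (GRCm38.p6) and in anchors read from the GRCm38 genome. The E-box word was added after the data were seen. Of 41 other junction genes all matched a symbol, Pals1 as Mpp5.

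Named loops were those in all 4 lists (for a gene with more than 6, the 6 with the highest median value), in both lists of 1 line or 1 factor alone, the longest, and the highest in each list. One such loop is not reported here. Other loops in the text, to Esrp2, Cdh3, Nectin4, Marveld2, Cldn4 and within Ocln and Tjp1, were chosen after their values were seen. The members and the lists were chosen with earlier results of these data known. The calculations used Python 3.11.15, numpy 2.4.6, pandas 2.3.3 and scipy 1.17.1, and were tested on simulated data. The alternatives were a start inside the anchor, the outermost start alone, a 5 kb distance, a minimum value of 2, widened anchors and each gene left out.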

Additional observations from a re-analysis of the deposited data

Results flagged for a closer look

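Among the genes with an anchor, 3 had opposite directions for the factors, with more FOXA1 loops and fewer HNF4G loops in liver mets than in tumor. The ratios of liver mets to tumor for FOXA1 and HNF4G were 1.51 and 0.667 for Cdh1, 1.38 and 0.667 for Epcam and 1.10 and 0.529 for Cldn3. The FOXA1 direction of Cldn3 rested on 11 loops against 10, and after scaling by the length of the lists its FOXA1 ratio was 0.912, the other way. Scaled in the same way, the FOXA1 ratio was 1.25 (0.831 to 1.91) for Cdh1 and 1.14 (0.418 to 3.26) for Epcam. Over all junction gene loops the unscaled ratios were 1.29 for FOXA1 and 0.697 for HNF4G. A difference between FOXA1 and HNF4G was not tested, because each group had 1 list, and 30.9% of genes with enough loops showed the same directions.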

How the results depend on the processing

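No paired analysis was possible because each group has 1 loop list that covers both replicates. Leaving out a replicate was not possible for the same reason. Of 38 alternatives, 27 kept the direction and the side of 1, or stayed within the interval, and 0 changed direction. The FOXA1 ratio over the junction genes (1.29) had an interval above 1 with F11r left out, at 1.37 (1.01 to 1.86). The HNF4G ratio (0.697) had an interval that included 1 with the start required inside the anchor (0.704), at a minimum value of 2 (0.556), and with Cdh1 (0.719), Cldn3 (0.732) or F11r (0.724) left out. Fewer loops were counted in each of these. Widening the anchors by 5 kb raised the share of loops in both lines to 66.3% for FOXA1 and 71.0% for HNF4G. At a minimum value of 2 the share of long loops was 42.9% for FOXA1 in liver mets, and for HNF4G 0% in liver mets and 66.7% in tumor. These rest on 14, 5 and 9 loops. Intervals cover counting error only, and depth limits could not be set.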
